A study of Rattus norvegicus with 4 samples.

Results

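The 8 genes of glutamate transport were compared between bisphenol A (BPA) exposed and control newborn rats. The members were chosen by symbol, from a proposal made with values of the same libraries known, so their values below are a description and carry no p-value. They are 3 vesicular transporters (Slc17a6, Slc17a7 and Slc17a8), 2 glial uptake transporters (Slc1a2 and Slc1a3), 2 neuronal uptake transporters (Slc1a1 and Slc1a6) and the neutral amino acid transporter Slc1a4. All 8 were found among the 13029 genes with a symbol that were listed in all 4 libraries.

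To examine the effect of prenatal BPA on the neonatal frontal cortex, RNA-seq was performed on rat pups labelled Wistar (Wistar Furth in the study's methods) and postnatal day 1, with 1 library for each sex and treatment (control and BPA males, control and BPA females). BPA is a plasticizer with hormone-like activity. The BPA dams received 5000 µg per kg of body weight daily by gavage from gestation day 1 until birth, and the control dams received the vehicle, ethanol in corn oil. The methods describe several pups and litters for each treatment but do not say how many pups entered a library, and they state that the meninges were removed at dissection.

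Glutamate is the main excitatory transmitter of the cortex. Vesicular transporters of the SLC17 family load it into synaptic vesicles, and membrane transporters of the SLC1 family clear it from the extracellular space after release. In the mature cortex most clearance is by astrocytes, which turn glutamate into glutamine and return it to neurons. Expression was given as FPKM, fragments per kilobase of transcript relative to all mapped fragments, which allows levels to be compared between genes.

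The depth of the libraries, recovered from the steps in the FPKM values, lay between 8945000 and 9250500 fragments. Among the marker genes of the labelled tissue, the 10 genes of cortical excitatory neurons summed to 553.4 and 542.4 FPKM in the control males and females. In the BPA libraries they summed to 616.3 and 604.9 FPKM. The early neuronal marker Dcx was at 348.35 and 338.91 FPKM in the controls against 353.45 and 365.35 FPKM after BPA. The lists that follow differed more between the treatments. The 10 genes of meninges and vessel wall summed to 467.9 and 609.8 FPKM in the control libraries and to 210.8 and 144.7 FPKM in the BPA libraries of males and females. The 6 listed genes of olfactory bulb projection neurons summed to 46.84 and 50.05 FPKM in the controls against 14.1 and 10.59 FPKM after BPA, while the 11 striatal genes summed to 97.04 and 100.1 FPKM against 147.4 and 158.8 FPKM. In whole tissue, fewer cells of a type and less RNA per cell cannot be told apart.

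The vesicular transporters expressed above 1 FPKM were lower in the BPA library of each sex, and they were the members with the lowest BPA to control ratios. Slc17a7 encodes VGLUT1, the main vesicular glutamate transporter of mature cortical neurons. Its level was 51.08 FPKM in the control male library, 30 in the BPA male, 56.97 in the control female and 32.17 in the BPA female. Both BPA values lay below both control values, with group means of 54.02 ± 4.16 FPKM in controls and 31.09 ± 1.53 FPKM after BPA (SD, n = 2 libraries, 1 of each sex). The change was -41.3% in males and -43.5% in females. On the log2(FPKM + 0.5) scale used for all ratios here, these were -0.76 in males and -0.81 in females, and -0.79 ± 0.079 (SE) with the sexes taken as replicates in limma, a linear model fitted across all genes. The values rested on 540 to 999 fragments each, and the 95% counting intervals of the log2 ratio were -0.92 to -0.61 for males and -0.98 to -0.67 for females. All counting intervals given here are for the ratio without the pseudocount. They cover counting error and leave out the variation between animals.

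Slc17a6 encodes VGLUT2, the vesicular transporter typical of thalamic and other subcortical neurons and also of immature cortical neurons. Its level was 12.33 FPKM in the control male, 7.62 in the BPA male, 12.38 in the control female and 7.12 in the BPA female library. The 2 control libraries were nearly equal, and both BPA libraries lay below them. The log2 ratio was -0.66 in males, with a counting interval from -0.92 to -0.47, and -0.76 in females, with an interval from -1.03 to -0.57. With the sexes as replicates it was -0.71 ± 0.11 (SE), on 251 to 447 fragments a library. Slc17a7 stayed the more abundant of the pair, at 4.14 and 4.6 times the Slc17a6 level in control males and females and at 3.94 and 4.52 times that level after BPA. The log2 ratios of the pair differed by -0.10 (log2) in males and -0.06 in females.

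Slc17a8 encodes VGLUT3, found in scattered interneurons and in neurons that also release other transmitters. It was close to absent, at 0.24, 0.14, 0.14 and 0.18 FPKM in the control and BPA male and the control and BPA female libraries, on 7, 4, 4 and 5 fragments. The counting interval of its log2 ratio was -3.02 to 1.18 for males and -1.90 to 2.65 for females, so no difference was detectable at this depth. It was the only member below the mean of 1 FPKM required for the fit across genes.

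**Figure D1:**
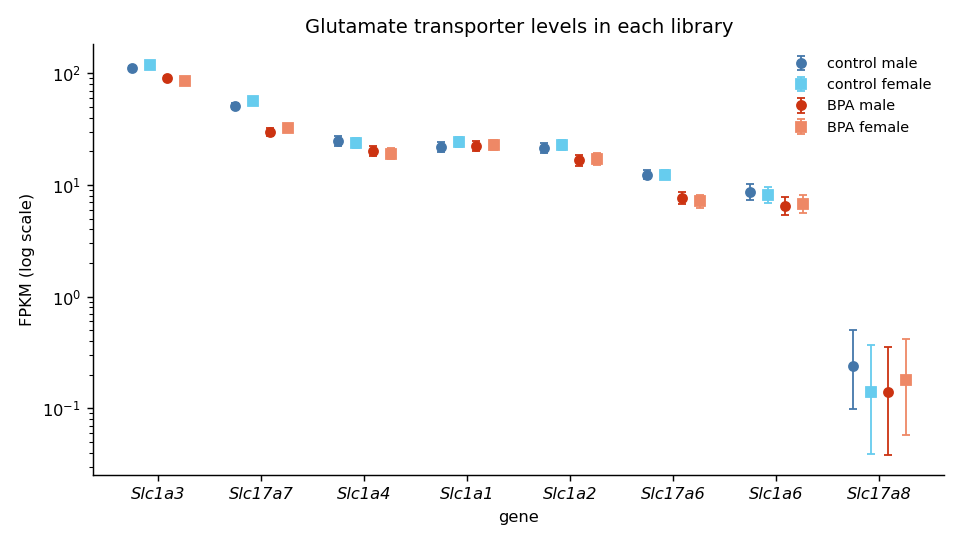
FPKM of the 8 glutamate transporter genes in the 4 libraries on a log axis, each point 1 library, with bars for the 95% counting interval. The BPA points lie below both control points for 6 genes, among them Slc17a7 at 30 and 32.17 against 51.08 and 56.97 FPKM, and overlap with them for Slc1a1 and Slc17a8.

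Because Slc17a7 and Slc17a6 had similar ratios, the 250 bases upstream of their start sites are shown from RefSeq (assembly GRCr8), 5′ to 3′, with motif matches in capitals. The Slc17a7 stretch lies at chr1:104785955-104786204 and the Slc17a6 stretch at chr1:110348197-110348446, both on the plus strand.
Slc17a7: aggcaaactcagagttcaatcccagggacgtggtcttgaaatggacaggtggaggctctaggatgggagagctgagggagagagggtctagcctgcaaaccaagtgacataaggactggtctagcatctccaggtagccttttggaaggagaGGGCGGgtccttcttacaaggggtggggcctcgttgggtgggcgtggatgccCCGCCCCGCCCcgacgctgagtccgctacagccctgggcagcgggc
Slc17a6: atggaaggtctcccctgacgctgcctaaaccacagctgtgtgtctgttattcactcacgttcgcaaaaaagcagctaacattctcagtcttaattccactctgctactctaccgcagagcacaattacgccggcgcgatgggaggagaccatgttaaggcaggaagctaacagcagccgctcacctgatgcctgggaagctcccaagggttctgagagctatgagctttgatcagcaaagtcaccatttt
Both strands were searched for the GC box (GGGCGG), the nuclear receptor core motif (AGGTCA), the androgen receptor core motif (AGAACA), the palindromic estrogen response element, the NeuroD-type E-box (CAGATG) and the TATA box (TATAAA). Slc17a7 held 3 GC boxes, 2 of which share 1 base, a motif found in 32.4% of 27457 rat promoters of this length, and Slc17a6 held no match to any of these motifs. The remaining motifs occurred in 13.7% (AGGTCA), 17.1% (AGAACA), 0.0219% (estrogen response element), 13.7% (CAGATG) and 13.1% (TATAAA) of all promoters. GC content was 61.2% for Slc17a7 and 50.8% for Slc17a6, with 10 and 9 CpG dinucleotides, against medians of 52.0% and 6 over all promoters. The estrogen response element can overlap a match to AGGTCA. A match is a description of the letters and does not show that a factor binds there.

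The glial uptake transporters were also lower in both BPA libraries, by less than the vesicular pair. Slc1a3 encodes the glutamate aspartate transporter (GLAST, EAAT1) of radial glia and astrocytes and was the most abundant member in every library. Its level was 112.23 FPKM in the control male, 90.99 in the BPA male, 118.12 in the control female and 84.61 in the BPA female library. Both BPA libraries lay below both controls, and the change was -18.9% in males and -28.4% in females. The log2 ratios were -0.30, with a counting interval from -0.37 to -0.24, and -0.48, with an interval from -0.55 to -0.41. These intervals did not overlap, but they leave out differences between animals, and with 1 library for each sex and treatment the difference between the sexes was not tested. With the sexes as replicates the log2 ratio was -0.39 ± 0.067 (SE).

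Slc1a2 encodes the glial glutamate transporter EAAT2, which carries most of the uptake in the adult forebrain. Its level was 21.54 FPKM in the control male, 16.62 in the BPA male, 23.0 in the control female and 17.1 in the BPA female library. Both BPA values again lay below both control values. The log2 ratio was -0.36 in males (counting interval -0.61 to -0.14), -0.42 in females (-0.66 to -0.20) and -0.39 ± 0.086 (SE) with the sexes as replicates. The Slc1a3 level was 5.21, 5.47, 5.14 and 4.95 times that of Slc1a2 in the control and BPA male and the control and BPA female libraries, so the glial pair kept nearly the same proportion.

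The upstream stretches of the glial pair are given in the same way, as the genes with the next lowest ratios when the sexes are taken as replicates. The Slc1a3 stretch lies at chr2:59557809-59558058 on the minus strand and belongs to the first of 3 listed starts, and the Slc1a2 stretch lies at chr3:109459859-109460108 on the plus strand and belongs to the first of 2.
Slc1a3: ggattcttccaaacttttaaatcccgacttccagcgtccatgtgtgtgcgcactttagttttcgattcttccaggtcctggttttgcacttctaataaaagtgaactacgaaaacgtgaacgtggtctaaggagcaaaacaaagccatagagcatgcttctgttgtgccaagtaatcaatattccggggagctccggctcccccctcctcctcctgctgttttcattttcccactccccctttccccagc
Slc1a2: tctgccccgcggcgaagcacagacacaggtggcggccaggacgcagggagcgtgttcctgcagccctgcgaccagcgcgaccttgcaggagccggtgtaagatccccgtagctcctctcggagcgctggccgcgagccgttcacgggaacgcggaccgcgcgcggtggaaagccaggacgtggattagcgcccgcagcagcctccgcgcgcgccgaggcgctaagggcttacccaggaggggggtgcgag
Neither held a match to the 6 motifs, so no base is in capitals. They differed in composition, with a GC content of 48.0% and 9 CpG dinucleotides for Slc1a3 and of 71.2% and 33 CpG dinucleotides for Slc1a2. Of the remaining members with a sequence, Slc1a6 held 4 GC boxes, Slc17a8 held 1 nuclear receptor core motif and 1 E-box, and Slc1a4 held no match. A promoter sequence was matched for 7 of the 8 members, all but Slc1a1.

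Of the neuronal uptake transporters, Slc1a1 overlapped between treatments and Slc1a6 did not, and the difference between them was not tested. Slc1a1 encodes EAAT3, a glutamate carrier of neuronal cell bodies and dendrites that also takes up cysteine. Its level was 22.05 FPKM in the control male, 22.27 in the BPA male, 24.06 in the control female and 22.68 in the BPA female library. The groups overlapped, with a log2 ratio of 0.01 in males (counting interval -0.20 to 0.23), -0.08 in females (-0.30 to 0.13) and -0.03 ± 0.083 (SE) with the sexes as replicates. Slc1a1 was the 1 member above 1 FPKM whose BPA and control libraries overlapped.

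Slc1a6 encodes EAAT4, best known from cerebellar Purkinje cells. Its level was 8.64 FPKM in the control male, 6.47 in the BPA male, 8.19 in the control female and 6.78 in the BPA female library, on 116 to 156 fragments. Both BPA libraries lay below both controls, yet the counting interval of the female log2 ratio of -0.26 reached from -0.64 to 0.09 and so included no change. In males the log2 ratio was -0.39 (-0.78 to -0.06), and with the sexes as replicates it was -0.32 ± 0.12 (SE), the widest error among the members fitted. The 5 Purkinje cell markers summed to 100.5 and 106.1 FPKM in the control and 121.6 and 135.8 FPKM in the BPA libraries of males and females, with Calb1 called lower and Pcp4 higher among the 4 tested. Pcp4 made up most of each sum, at 63.36 and 67.9 FPKM in the controls and 89.18 and 103.82 FPKM after BPA. Both BPA libraries lay below both controls for 2 of the 4 tested and above them for 2. The most specific of the 5 markers, Pcp2, was at 0.54 and 0.56 FPKM in the controls against 2.44 and 0.01 FPKM after BPA. Their part in the Slc1a6 result was not tested.

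Slc1a4 encodes ASCT1, an SLC1 family member that exchanges alanine, serine and cysteine and does not carry glutamate as its main substrate. Its level was 24.81 FPKM in the control male, 20.26 in the BPA male, 23.85 in the control female and 19.02 in the BPA female library. The groups did not overlap, and the log2 ratio was -0.29 in males (counting interval -0.50 to -0.09), -0.32 in females (-0.54 to -0.11) and -0.30 ± 0.083 (SE) with the sexes as replicates.

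Read against all genes, the members were ordered as follows. Of the 7 members above 1 FPKM, 6 had both BPA libraries below both control libraries, as did 33.4% of the 10629 genes tested, while 19% of genes had both above. When each library was scaled to the median gene, these background shares became 27.1% lower and 26.3% higher, and the same 6 members remained below. Slc17a6 and Slc17a7 were the 2 members with a log2 ratio at or below -0.5 in each sex. That limit was met by 6.03% of genes in males, 9.41% in females and 3.26% in both, and no member reached 0.5 in the other direction, which 1.52% of genes did in males and 1.35% in females. Ranked from the lowest ratio upwards with the sexes as replicates, Slc17a7 lay at the 2.2 percentile, Slc17a6 at 2.8, Slc1a2 and Slc1a3 at 10, Slc1a6 at 13.5, Slc1a4 at 14.8 and Slc1a1 at 51.7. Since the members were proposed with this contrast known, these positions show where they lie and support nothing further. A log2 ratio below 0 in both sexes was found for 41.7% of genes and for the same 6 members, and the median log2 ratio of all genes was -0.04 in males and -0.05 in females.

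**Figure D2:**
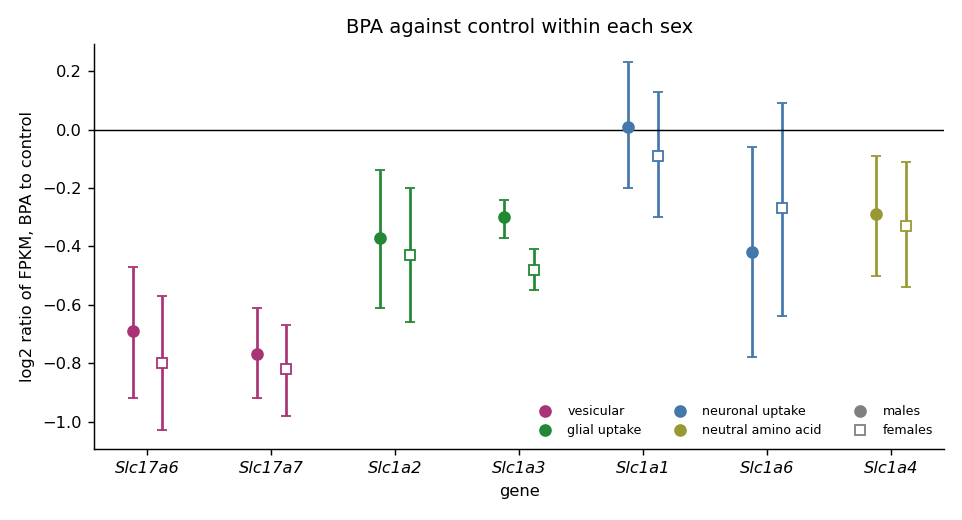
Log2 ratio of BPA to control FPKM, without the pseudocount, for the 7 members above 1 FPKM, with filled circles for males, open squares for females, bars for the 95% counting interval and colors for the class of transporter. Slc17a7 and Slc17a6 lie lowest, between -0.69 and -0.82, and the interval includes 0 for Slc1a1 in each sex and for Slc1a6 in females.

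**Figure D3:**
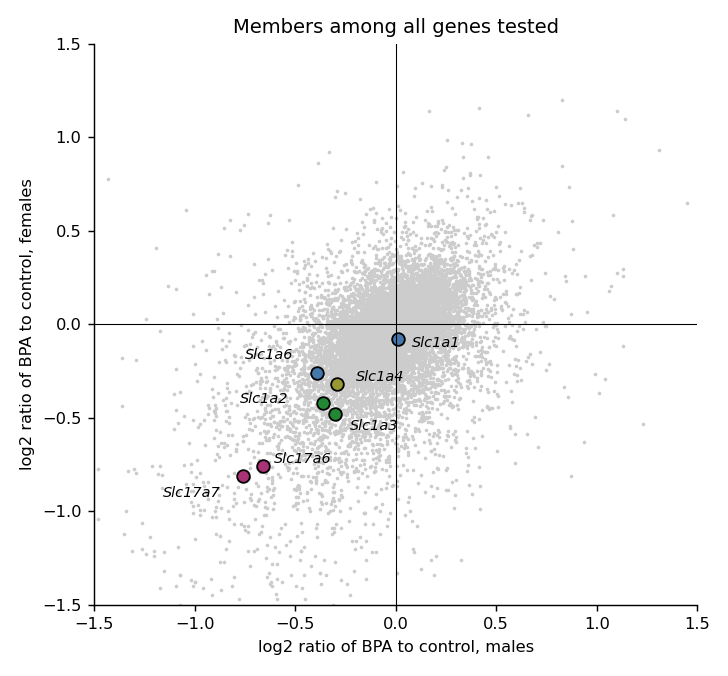
Log2 ratio in females against log2 ratio in males for the genes tested (grey dots, those beyond 1.5 on an axis not drawn) and the 7 members among them (labelled). Slc17a7 and Slc17a6 lie at the lower left, beyond -0.5 on each axis, and Slc1a1 lies beside the origin.

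The order of levels was partly preserved after BPA. In the controls Slc1a3 was highest, followed by Slc17a7, then by Slc1a4, Slc1a1 and Slc1a2, which lay between 21.54 and 24.81 FPKM and overlapped, and then by Slc17a6, Slc1a6 and Slc17a8. In the BPA libraries Slc1a3 and Slc17a7 were still the highest, at 84.61 to 90.99 and 30 to 32.17 FPKM. Slc1a1 stood above Slc1a4 and Slc1a2 in each sex, as it already did in the control female library, and its counting interval overlapped that of Slc1a4 in both sexes. Slc17a6, at 7.12 and 7.62 FPKM, came close to Slc1a6, at 6.47 and 6.78 FPKM, and their counting intervals overlapped. The sexes within a treatment differed little, and the largest difference between females and males among the 7 members above 1 FPKM was 0.16 (log2) for Slc17a7 in the controls.

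Summed by class, the transporters changed their proportions. The vesicular sum was 63.65 FPKM in the control male against 37.76 in the BPA male library, and 69.49 against 39.47 in females, a change of -40.7% and -43.2%. The glial uptake sum was 133.8 against 107.6 FPKM in males and 141.1 against 101.7 in females, a change of -19.6% and -27.9%. The neuronal uptake sum moved least, with 30.69 against 28.74 FPKM in the male and 32.25 against 29.46 in the female libraries. The vesicular to glial ratio was accordingly 0.476 in the control male, 0.351 in the BPA male, 0.492 in the control female and 0.388 in the BPA female library. The vesicular to neuronal uptake ratio was 2.07, 1.31, 2.15 and 1.34 in the same order, and the glial to neuronal uptake ratio 4.36, 3.74, 4.38 and 3.45. All 3 ratios were lower in both BPA libraries than in both controls, with 1 library for each sex and treatment and no test.

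**Figure D4:**
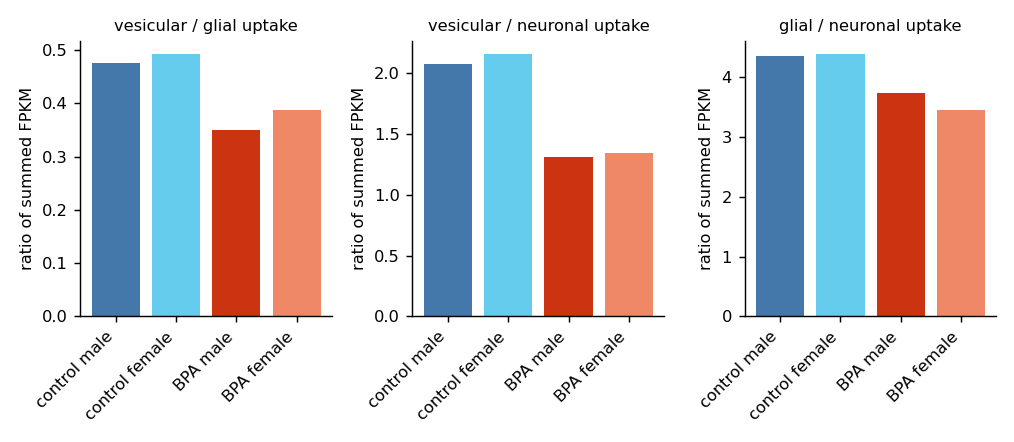
Bars give the ratios between the summed FPKM of vesicular, glial uptake and neuronal uptake transporters in each library. The vesicular to neuronal uptake ratio lies at 2.07 and 2.15 in the control and at 1.31 and 1.34 in the BPA libraries.

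Cell type markers that share a source with the members moved in both directions. The marker lists, too, were chosen with earlier results of these data known, so their counts and p-values are a description. Of the astrocyte markers, 5 of 10 tested were lower by limma at an adjusted p under 0.05 (among them Aqp4, Gfap, Gja1 and Slc4a4), where 4.49% of all genes were called, 3.79% lower and 0.696% higher. Both BPA libraries lay below both controls for 6 of the 10 tested and above them for 1, and the rest overlapped. The whole list of 11 summed to 242.8 against 211.6 FPKM in males and 280.7 against 177.6 FPKM in females, and none of its genes was at the lowest listed value in every library. The 7 genes of radial glia and progenitors, the other cells that express Slc1a3, summed to 702.3 against 614.1 FPKM and 695.6 against 512.3 FPKM, with none called by limma and 2 lower at an unadjusted p under 0.05. Their part in the lower Slc1a3 and Slc1a2 was not tested.

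Markers of the neurons that use the vesicular transporters did not fall together. Of the 10 cortical excitatory genes only Neurod2 was called, as higher, and the list summed to 553.4 against 616.3 FPKM in males and 542.4 against 604.9 FPKM in females. The 6 pan-neuronal genes summed to 3354 against 3642 FPKM and 3234 against 3520 FPKM, with Nefl called lower. Olfactory bulb projection neurons, which also carry vesicular glutamate transporters, gave a different picture, since Cdhr1 was 41.1 and 44.48 FPKM in control males and females against 10.77 and 9.29 FPKM after BPA (limma adjusted p = 1.05e-05). Tbx21, a transcription factor of the same cells, was at 1.74 and 0.85 FPKM in the controls against 0.01 and 0.05 FPKM. Nmb (2.52 against 1.99 FPKM in males and 3.16 against 0.18 FPKM in females, adjusted p = 0.144), Lhx1 (0.69 against 0.35 and 0.77 against 0.36) and Lhx5 (0.41 against 0.29 and 0.48 against 0.24) also had lower values after BPA, and Doc2g had higher ones (0.38 against 0.69 and 0.31 against 0.47). Cdhr1 was the 1 gene called of the 2 abundant enough to test. Thalamic markers were scarce, summing to 4.24 against 2.87 FPKM in males and 5.78 against 2.62 FPKM in females over 4 genes, with none of the 2 tested called by limma and 0 at an unadjusted p under 0.05. The part of these cell types in the lower Slc17a7 and Slc17a6 was not tested.

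Of the other lists, 9 of 10 meningeal and vessel wall genes were called lower (Col1a1, Col1a2, Col3a1, Dcn, Lum, Igf2, Ptgds, Gjb2 and Slc6a13), 5 of 11 striatal genes higher (Drd2, Ppp1r1b, Rxrg, Ebf1 and Penk), 2 of 6 genes of GABA neurons lower (Gad1 and Dlx1), and 1 of 3 blood genes lower (Hbb-b1). The blood genes summed to 561.7 against 493.1 FPKM in males and 516.9 against 414.6 FPKM in females, and the genes of GABA neurons to 116.8 against 105.4 FPKM and 115.2 against 102.0 FPKM. The GABA neuron list was mixed, with both BPA libraries below both controls for 2 of its genes and above them for 2. None of the 5 oligodendrocyte lineage genes was called by limma, with 2 lower at an unadjusted p under 0.05, and their sum was 81.66 against 75.18 FPKM in males and 92.48 against 74.65 FPKM in females. The median log2 ratio of these 5 genes was 0.20 in males and -0.12 in females.

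Around the transporters, 8 lists of 52 genes for glutamate metabolism and transmitter handling were read from the same fit. These lists were chosen with earlier results of these data known. Their counts and p-values therefore show where the genes lie and support nothing further. Of the 41 tested, 6 were called lower and 0 higher, against 3.79% and 0.696% of all genes, and at an unadjusted p under 0.05 limma gave 19 lower and 2 higher, and 2244 of the 10629 genes in either direction. Both BPA libraries lay below both controls for 26 of the 41 and above them for 3, where the shares over all genes were 33.4% and 19%. Without the control female library, 2 of the 6 calls were kept, Slc7a11 and Slc25a18. With libraries scaled to the median gene, 5 were called lower and 1 higher, the large neutral amino acid carrier Slc7a5 (adjusted p = 0.0321, and 0.058 unscaled). Slc7a5 was also called higher with sex as a block (0.0229) and without the BPA female library (0.0122).

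The lowest ratio among these was that of Slc7a11, the cystine glutamate exchanger that releases glutamate in return for cystine. Its level was 12.23 FPKM in the control male, 5.76 in the BPA male, 14.74 in the control female and 5.41 in the BPA female library (log2 ratio -1.20 ± 0.13 SE, limma adjusted p = 0.00107). Its partner chain Slc3a2 did not follow, at 83.33, 85.54, 86.94 and 78.76 FPKM (-0.05 ± 0.068, adjusted p = 0.707). Slc25a18, a mitochondrial glutamate carrier typical of astrocytes, was 7.6, 4.59, 7.45 and 3.18 FPKM in the same order (-0.89 ± 0.17, limma adjusted p = 0.0193, and 0.0534 without the BPA female library). Slc25a22, the related carrier, was not called, at 38.79, 38.33, 40.24 and 36.24 FPKM (adjusted p = 0.551).

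Of the glutamine carriers, Slc38a5, which exports glutamine from glia, was lower at 19.71, 15.6, 21.7 and 13.31 FPKM in the same order of libraries (-0.51 ± 0.1, limma adjusted p = 0.0255, but 0.111 without the control female and 0.0836 without the BPA female library). Slc38a1 and Slc38a2, which bring glutamine into neurons, were not called (adjusted p = 0.814 and 0.917). Slc38a3, another glial glutamine carrier, was 26.88, 25.32, 30.27 and 21.64 FPKM and was not called either (-0.28 ± 0.098, adjusted p = 0.143). Glul, the glutamine synthetase of astrocytes, was 142.77, 133.54, 156.17 and 105.52 FPKM (-0.33 ± 0.1, adjusted p = 0.1). Without the BPA male library it was called lower, at -0.50 with an adjusted p of 0.00447. None of the 10 enzymes of the glutamate cycle was called by limma, though 6 were lower and 1 higher at an unadjusted p under 0.05, and Glud1 and Got2, which link glutamate to the citric acid cycle, had adjusted p-values of 0.116 and 0.514. With sex as a block, Glul and Glud1 were called lower (adjusted p = 0.0341 and 0.0498).

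Of the synaptic vesicle proteins, 2 of 9 were called lower. Syn2, a synapsin that tethers vesicles, was 18.62, 13.96, 20.6 and 12.64 FPKM (-0.54 ± 0.098, limma adjusted p = 0.0148, but 0.0792 without the control female and 0.0513 without the BPA female library). Syt1, the calcium sensor of release, was 88.02, 70.03, 93.0 and 76.23 FPKM (-0.31 ± 0.07, limma adjusted p = 0.0388). The Syt1 call was lost on scaling to the median gene (0.0636) and without the control male (0.0564), control female (0.189) or BPA male library (0.113). The abundant vesicle proteins Vamp2, Syp and Snap25 had log2 ratios of -0.04, -0.19 and -0.16 and adjusted p-values of 0.755, 0.104 and 0.239. With sex as a block, Syp was called lower (adjusted p = 0.0352), as was Sv2b (0.0378, and 0.0716 without the block).

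The vesicular transporter of inhibitory neurons, Slc32a1, was not called, at 16.54, 15.69, 15.73 and 16.65 FPKM (log2 ratio 0.00 ± 0.091, adjusted p = 0.989). The vesicular monoamine transporter Slc18a2 was at 1.48, 1.65, 1.26 and 1.56 FPKM (adjusted p = 0.707), and the acetylcholine transporter Slc18a3 stayed at or below 0.28 FPKM. The astrocytic GABA transporter Slc6a11 and the glycine transporter Slc6a9 were not called (adjusted p = 0.0671 and 0.711), although Slc6a11 was called lower with sex as a block (0.0378). Of the remaining relatives of the members, the neutral amino acid exchanger Slc1a5 was at 2.46, 1.95, 3.48 and 1.37 FPKM (-0.68 ± 0.23, adjusted p = 0.132), the lysosomal sialic acid exporter Slc17a5 at 7.66, 6.57, 6.07 and 5.53 FPKM (adjusted p = 0.574), and the vesicular nucleotide transporter Slc17a9 at or below 0.15 FPKM. None of the 5 proteins listed as partners of the uptake transporters was called by limma, with 2 lower at an unadjusted p under 0.05, and Arl6ip5 and Arl6ip1 had adjusted p-values of 0.666 and 0.196.

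**Figure D5:**
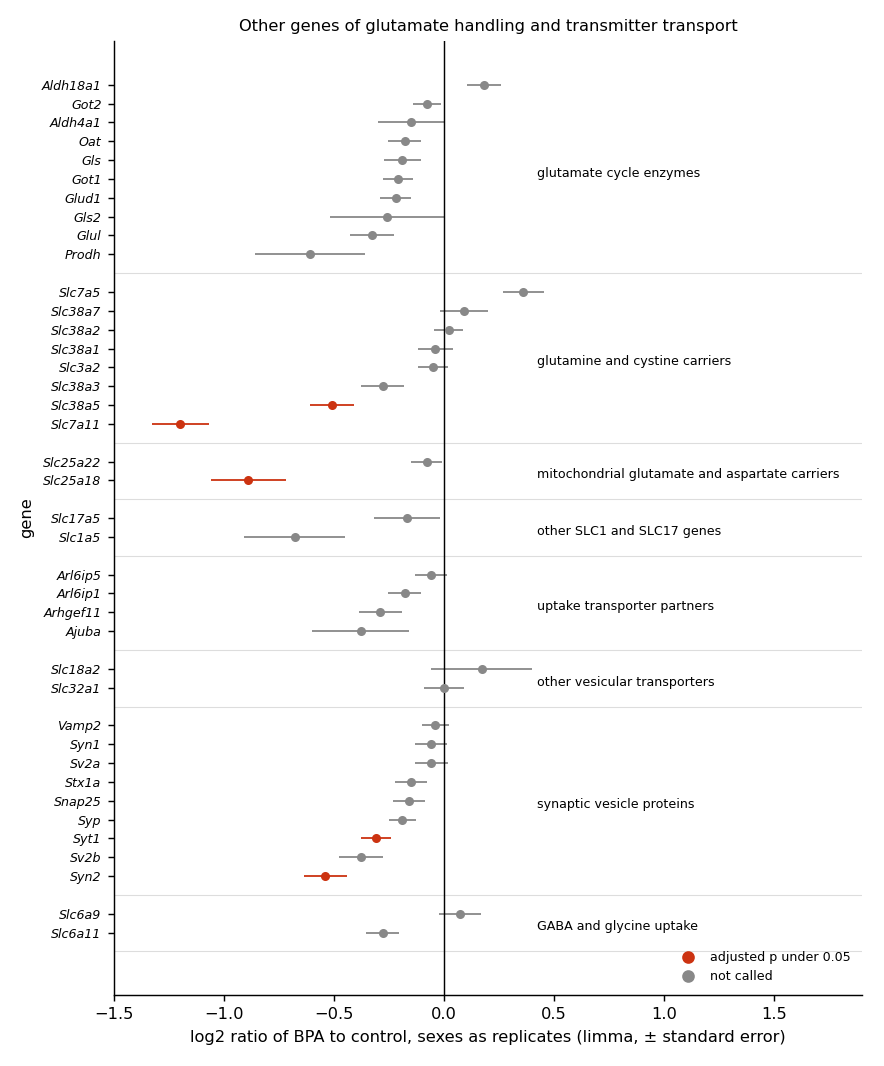
Limma log2 ratio of BPA to control with the sexes as replicates, with bars for 1 SE, for 39 of the 41 tested genes of the 8 lists, grouped by list. The 5 called genes among them are in red, and Slc7a11 lies furthest down at -1.20.

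The genes whose pattern over the 4 libraries was most like that of a member were found by the distance between log2(FPKM + 0.5) values centred on their mean, among 8055 genes of at least 5 FPKM. With 4 libraries, a small distance is easily reached. For Slc17a7 these were Cd48 (0.05), Bmp6 (0.072), Aqp4 (0.081), Slc4a4 (0.104) and Ppic (0.105), in log2 units. Aqp4 and Slc4a4 belong to the astrocyte list. For Slc17a6 they were Insig1 (0.032), Acot13 (0.032), Srgn (0.081), LOC100911576 (0.092) and Nxn (0.095). For Slc1a3 they were Qpct (0.018), Pxk (0.027), Me1 (0.029), Ninj1 (0.034) and Tprg1l (0.035), and for Slc1a2 Ssbp1 (0.026), Sprn (0.036), Prkca (0.042), Pdia4 (0.044) and Grin3a (0.052). None of these 4 lists held another member.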

How the data were processed

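Cortical RNA of 4 libraries was analyzed, 1 for each sex and treatment. The authors selected mRNA on oligo(dT), ran the libraries on an Illumina HiSeq instrument, mapped reads to Rnor_6.0 with Bowtie 2 and computed expression with RSEM. The submitters' processing notes also name HISAT, and versions are not given in the sources used here. The deposited values are FPKM with 2 decimals, already divided by transcript length and library depth, and 0.01 is the lowest value. RSEM shares reads between similar transcripts, so near-identical genes are uncertain.

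The members and gene lists were chosen with earlier results of these data known. The study tested genes with a Poisson model, which needs counts, and limma 3.58.1 (R 4.3.3) was used in its place. It was fitted on log2(FPKM + 0.5) of the 10629 genes with a mean of at least 1 FPKM, with a variance trend, treatment as the only term, the sexes as replicates (2 residual degrees of freedom) and Benjamini-Hochberg adjustment. The p-values then measure the spread between these libraries only. Within a sex there is 1 library a group and no test, and a log2 ratio of at least 0.5 in size is called. Depth was recovered as the number of fragments that made FPKM times length (minus 60 bases) nearest to whole numbers. Between 85.4% and 87.1% of 2153 to 2248 scarce transcripts came within 0.1 of a whole number, where an even spread would give 20%. Exact Poisson and binomial 95% intervals cover counting error only. Fit and recovery were tested on simulated data.

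Named were all members, the called genes and the 3 most abundant of each pathway list, the called genes and summed level of each marker list, and the 5 genes nearest to each of 4 members. A few genes of the lists are counted but not reported here by name. Tbx21, Nmb, Lhx1, Lhx5, Doc2g, Dcx, Pcp2, Sv2b, Slc7a5, Slc38a3, Slc38a7 and Gls2 were named after their values were seen. Alternatives were pseudocounts of 0.1 and 1, no filter, a filter of 5 FPKM, median scaling, single transcripts, sex as a block, and leaving out each library. Promoters came from RefSeq (GRCr8), and coordinates are given in that build only. Python 3.11.15, numpy 2.4.6, pandas 2.3.3, scipy 1.17.1 and matplotlib 3.10.9 were used.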

Additional observations from a re-analysis of the deposited data

Results flagged for a closer look

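Members and tested genes of the pathway lists are given here whose log2 ratio of BPA to control had opposite signs in the sexes, with 1 library for each sex and treatment. The difference between the sexes was not tested for any of them. Among the members, Slc1a1 was at 0.01 in males and -0.08 in females, and Slc17a8 at -0.21 in males and 0.09 in females on 4 to 7 fragments a library. The counting intervals of both genes included 0 in each sex. Among the carriers of glutamine and cystine, Slc3a2 was at 0.04 in males and -0.14 in females, Slc38a2 at 0.06 and -0.02, Slc38a1 at -0.16 and 0.09, and Slc38a7 at 0.27 and -0.10. The glutaminase gene Gls2 was at 0.05 in males and -0.57 in females. The vesicular GABA transporter Slc32a1 was at -0.07 in males and 0.08 in females.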

How the results depend on the processing

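The log2 ratios of the members moved little. Of 119 recomputed values, 118 stayed within the error of the reported one and none of a called size reversed. The exception was Slc17a7, at -0.71 in place of -0.79 without the control female library. Slc1a1 ranged from -0.10 to 0.03 with the sexes as replicates, from 0.01 to 0.05 within males and from -0.08 to -0.03 within females.

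The counts over all genes depended more on the settings. The 477 genes called by limma became 0 with no filter on low values (2417 at an unadjusted p under 0.05 of 13029 genes), 74 with single listed transcripts and 875 with sex as a replicate block, where 1 residual degree of freedom remained. The block pairs the libraries of a sex, and the labels carry no replicate numbers that would pair animals. Leaving out 1 library gave 227 (without the control female) to 465 calls, where the lone library of a group was assumed to vary like the others. Of the pathway lists, the 6 calls became 0 with no filter (19 at an unadjusted p under 0.05), 1 with single transcripts (Slc7a11), 12 with the block, and 2 (without the control female) to 5 when a library was left out. Genes with a log2 ratio of at least 0.5 in size numbered 803 in males and 1144 in females. These became 1272 and 1719 with no filter, 299 and 422 at a mean of at least 5 FPKM, and 1504 and 1899 with single transcripts. The cause of these shifts was not tested. With 1 library for each sex and treatment, variation between litters was not measured.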
